A study of Sus scrofa with 12 samples.

Results

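The interferon response and cytosolic nucleic acid sensing genes described here are 47 listed genes, which were followed in porcine aortic valve interstitial cells (paVICs), the fibroblast-like cells that build and maintain the leaflet matrix. Members were the rows of the count table whose gene symbol was on the list, and the list was drawn up with earlier results of these data known. Of the 47 genes, 44 had a row among the 31908 rows of the table, and 43 were among the 13216 genes that passed the filter on low counts. *IFNAR2*, *IFIT3*, and *GBP1* had no row under their symbol. *ISG20*, an interferon-induced nuclease, had between 0 and 5 counts per library and was not tested.

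Cells treat DNA in the cytosol, and double-stranded RNA, as signs of infection or damage. cGAS detects DNA, IFIH1 (also called MDA5) detects long double-stranded RNA, and the signals pass through adaptors such as MAVS and the kinases TBK1 and IKBKE to the interferon regulatory factors, which switch on the interferon genes. Secreted interferon then acts through its receptors, the JAK kinases, and the STAT factors to induce a large set of antiviral effectors. TREX1 stands at the head of this pathway as a brake, since it is a DNA exonuclease that removes cytosolic DNA before cGAS can bind it. Its loss is known for causing interferon-driven inflammatory disease.

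Wild-type paVICs from primary isolations were thawed, passaged once, and treated for 24 h in medium with 1% serum. The 4 groups of 3 libraries were vehicle, 10 μM LPC (lysophosphatidylcholine, a lipid carried by oxidized lipoproteins), 60 μM dantrolene (a blocker of the ryanodine receptor calcium channel), and LPC + dantrolene. Vehicle was 0.6% DMSO with 0.1% ethanol, and the labels give the LPC group 0.6% DMSO and the dantrolene group 0.1% ethanol beside the agent. Replicate numbers 1 to 3 were taken to mark the same isolation in every group. The labels do not state this match. Each isolation was cultured on its own day. The labels name no infection and no added interferon.

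Total counts were between 16489684 and 24105935 per library, and 3 counts corresponded to 0.114 to 0.186 CPM (counts scaled to a common library size with TMM factors). The LPC + dantrolene library of isolation 2 stood apart from the other 11, with a score of −46.0 on the first principal component against −15.97 to 20.8 in the rest. All 12 valve interstitial markers were tested, and their summed level was 59045 to 111923 CPM. Markers of other cells were low, with endothelial sums of 106 to 174 CPM, macrophage sums of 13.7 to 29.3 CPM, lymphocyte sums of 0 to 1.38 CPM, and cardiomyocyte sums of 0.175 to 2.00 CPM. Of the plasmacytoid dendritic cell list only *TCF4* had a row. The defining leukocyte genes *PTPRC*, *CD163*, *LYZ*, *CD3D*, and *CD3E* had 0 counts in every library. Other genes of these lists passed the filter on low counts. They were *CD14* (10.3 to 24.5 CPM), *CD68* (0.760 to 3.17 CPM), *SPI1* (0.368 to 2.57 CPM), and *CD79A* (0 to 1.38 CPM). Of the markers, the valve interstitial gene *LUM* rose with LPC, dantrolene, and both, and *POSTN* and the proliferation gene *TOP2A* rose with LPC. The proliferation gene *MCM2* fell with dantrolene and with both, and the endothelial *CDH5* fell with dantrolene. The part of these genes' cells in the results below was not tested. In bulk RNA, fewer cells that express a gene and less RNA per cell cannot be told apart.

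Compared to vehicle, LPC changed 6 of the 43 tested members at an adjusted p under 0.05 in edgeR's quasi-likelihood test. *TREX1* fell, and the RNA sensor gene *IFIH1* and the effector genes *EIF2AK2*, *IFIT5*, *PARP14*, and *IFI44L* rose. The 5 members that rose are 11.6% of those tested, beside 8.54% of all genes that were called higher, and the 1 that fell is 2.33%, beside 0.144% of all genes. Dantrolene alone raised 4 members (9.30%, beside 7.54% of all genes) and lowered none (1.26% of all genes were called lower). LPC + dantrolene raised 4 members compared to vehicle (9.30%, beside 6.23% of all genes) and lowered none (0.9% of all genes). The shares of members that rose were thus near the background in all 3 treatments. The median log2 fold change of the members was −0.21 with LPC, −0.13 with dantrolene, and −0.14 with both, while the medians over all genes were −0.18, −0.11, and −0.08. These 3 comparisons share the vehicle libraries.

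**Figure D1:**
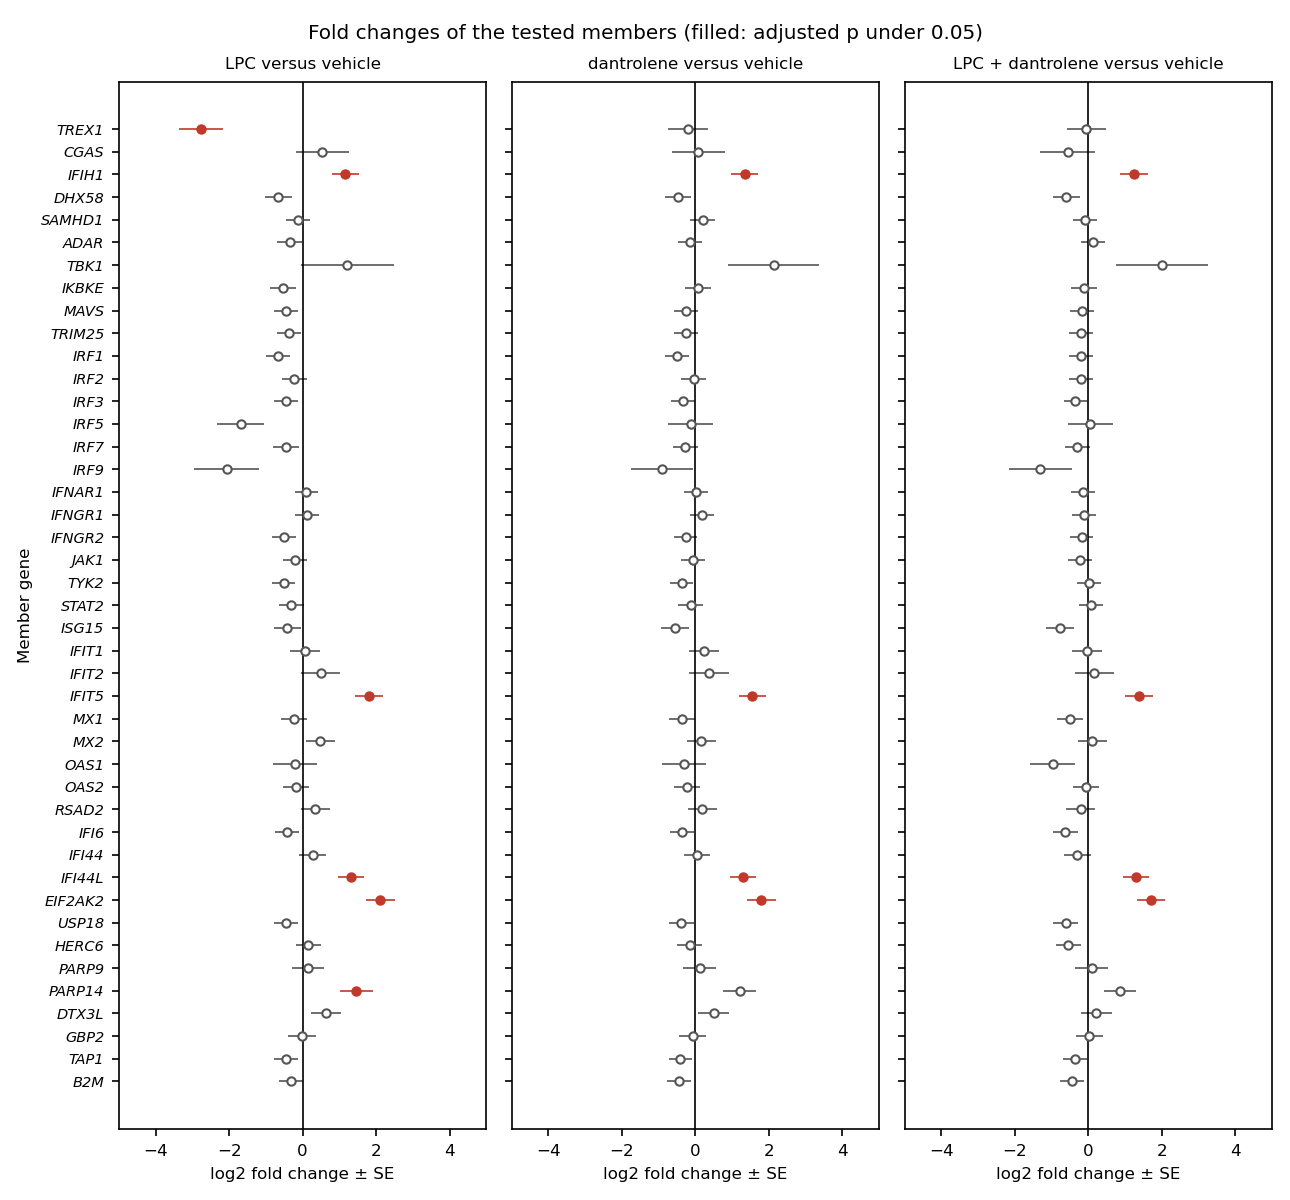
Log2 fold change with its standard error (horizontal axis) for the 43 tested members (rows) in each treatment compared to vehicle. Filled red points passed an adjusted p of 0.05, and *TREX1* is the only filled point left of 0.

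*TREX1* (ENSSSCG00000011358, chr13:31177604-31180764 in RefSeq's Sscrofa11.1 annotation) was at 3.53, 2.86, and 4.13 CPM in the 3 vehicle libraries and at 0.359, 1.03, and 0.154 CPM with LPC. Dantrolene alone gave 5.04, 0.876, and 3.27 CPM, and LPC + dantrolene gave 1.95, 4.16, and 4.06 CPM. Every LPC library was below every vehicle library and every LPC + dantrolene library. The lowest library outside the LPC group was dantrolene replicate 2, which lay within the LPC range. The values rest on few reads, with 49 to 74 counts per vehicle library, 3 to 19 with LPC, 23 to 92 with dantrolene, and 37 to 81 with both.

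The mean *TREX1* level fell from 3.51 ± 0.633 CPM in vehicle to 0.515 ± 0.459 CPM with LPC (SD, n = 3), which is −2.76 ± 0.61 on the log2 scale (SE, adjusted p = 0.000556). Within isolations 1, 2, and 3, the LPC library held 0.102, 0.361, and 0.0374 of the vehicle level. *TREX1* was higher with LPC + dantrolene (3.39 ± 1.25 CPM) than with LPC by 2.71 ± 0.61 on the log2 scale (SE, adjusted p = 0.00987), in 3 of 3 isolations. With the isolation as a block the same difference was 2.72 with an adjusted p of 0.0960. It also missed the threshold without vehicle replicate 1 (adjusted p = 0.0545) and without LPC replicate 1, 2, or 3 (adjusted p = 0.147, 0.0515, and 0.137), with total counts alone (0.109), and with only these 2 groups in the fit (0.163). Dantrolene alone (−0.20 ± 0.54, adjusted p = 0.897) and LPC + dantrolene (−0.05 ± 0.54, adjusted p = 0.993) did not differ from vehicle by the test. *TREX1* was the only member called between LPC + dantrolene and LPC, which is 2.33% of the members beside 0.219% of all genes higher and 0.288% lower.

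**Figure D2:**
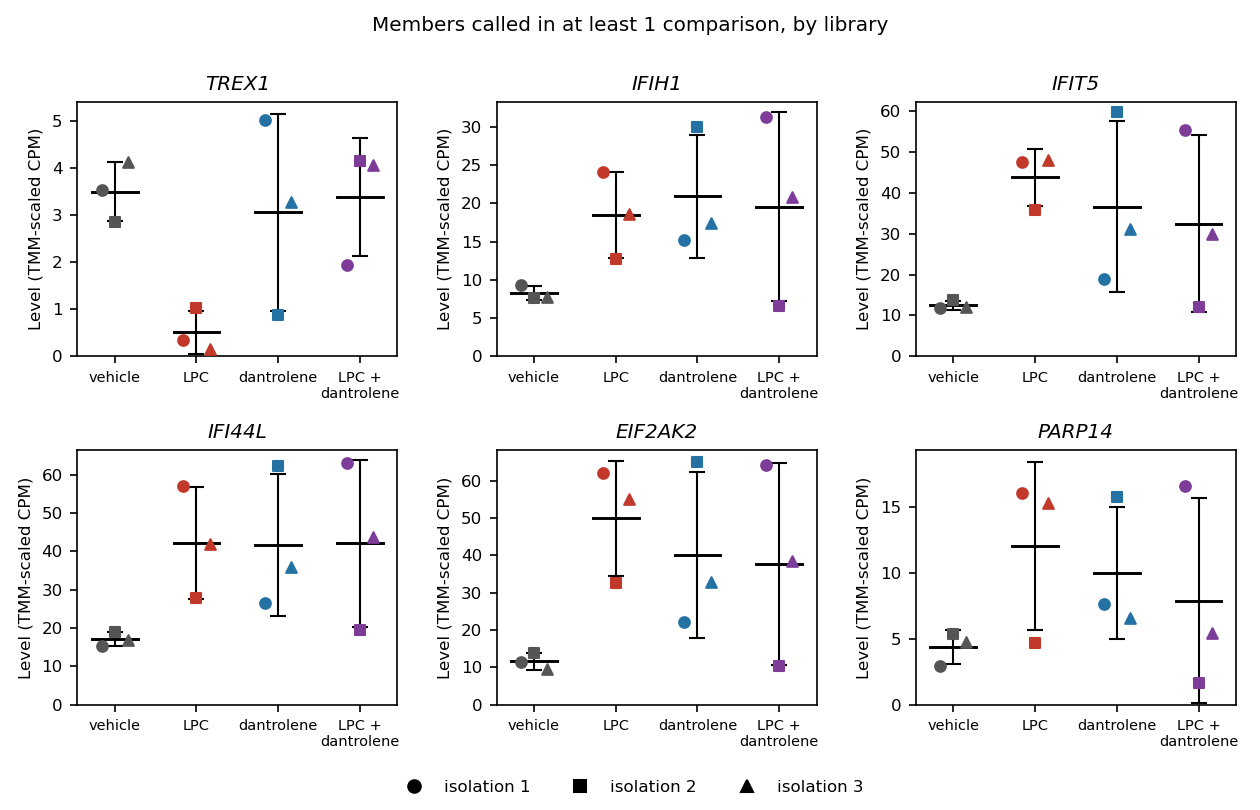
Level in CPM (vertical axis) of the 6 members called in at least 1 comparison, for each library of the 4 groups (horizontal axis). Marker shape gives the isolation, the bar is the mean, and the whisker the SD of 3 libraries. *TREX1* is at or below 1.03 CPM in all LPC libraries, whereas *IFIH1*, *IFIT5*, *IFI44L*, and *EIF2AK2* are lowest in the vehicle group and in LPC + dantrolene isolation 2.

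*ATRIP*, a DNA damage checkpoint gene, overlaps *TREX1* by 1113 bases in the RefSeq annotation, and no source used here says how reads in the shared bases were assigned. *ATRIP* was at 8.20 to 12.5 CPM in vehicle and 7.17 to 9.43 CPM with LPC, and the groups differed by −0.30 on the log2 scale (adjusted p = 0.708). The neighbour on the other side, *SHISA5*, differed by −0.64 on the log2 scale (adjusted p = 0.317). The 5 genes whose log2 CPM tracked *TREX1* most closely over the 12 libraries were *ZFYVE28* (Pearson's r = 0.935), *CYP4F8* (r = 0.933), *DECR2* (r = 0.912), *TAFA3* (r = 0.910), and *ARMCX6* (r = 0.904). They are the closest of 13216 genes in libraries that share groups and scaling, so these values are a description only.

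Among the other sensors, *IFIH1* (ENSSSCG00000015897, chr15:68930998-68985145) was at 9.30, 7.65, and 7.79 CPM in vehicle and at 24.1, 12.8, and 18.6 CPM with LPC. It was at 15.2, 30.0, and 17.5 CPM with dantrolene and at 31.2, 6.59, and 20.8 CPM with both. The LPC and dantrolene groups did not overlap with vehicle, whereas LPC + dantrolene replicate 2 lay below all vehicle libraries.

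*IFIH1* rose with LPC by 1.16 ± 0.37 on the log2 scale (SE, adjusted p = 0.0315), with dantrolene by 1.34 ± 0.37 (adjusted p = 0.0101), and with LPC + dantrolene by 1.25 ± 0.37 (adjusted p = 0.0215). With the isolation as a block, the adjusted p was 0.101 for LPC and 0.120 for LPC + dantrolene. The LPC call was also lost with DESeq2 (adjusted p = 0.0725), with total counts alone (0.0627), and without any 1 of the 6 libraries compared, with an adjusted p of up to 0.298. The dantrolene call was lost without vehicle replicate 1 or 2 or dantrolene replicate 2 (adjusted p up to 0.229). The call with both agents was lost without any vehicle library, LPC replicate 2, or LPC + dantrolene replicate 1 or 3 (adjusted p up to 0.455), with DESeq2 (0.0547), and with only the 2 groups compared (0.106). Leaving out LPC + dantrolene replicate 2 gave 1.71 (adjusted p = 2.38e-05).

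The remaining sensing genes did not pass the test in any comparison. *CGAS* was at 0.668 to 2.45 CPM in vehicle and 0 to 2.88 CPM in the treated libraries, on 0 to 53 counts. The 0 was in LPC + dantrolene replicate 2, where the effector genes *IFIT2* and *OAS1* also had 0 counts. Replicates 1 and 3 of that group held 353 and 136 counts of *IFIT2* and 59 and 34 of *OAS1*. *DHX58*, a regulator of the RNA sensors, was at 10.4, 34.2, and 35.4 CPM in vehicle, a range that covered all 9 treated libraries. *SAMHD1*, which depletes nucleotides, and *ADAR*, which edits double-stranded RNA, differed from vehicle by log2 fold changes between −0.36 and 0.19.

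Of the 4 relay genes, *TBK1* had the smallest adjusted p, at 0.428 with dantrolene. Its levels were 0.191, 0.175, and 0 CPM in vehicle, 0.307, 0.380, and 0.206 CPM with LPC, 0, 0.762, and 0.928 CPM with dantrolene, and 0.737, 0, and 0.802 CPM with both. No library held more than 20 counts of this kinase gene, and its difference of 2.13 with dantrolene had an SE of 1.24 on the log2 scale. *IKBKE*, *MAVS*, and *TRIM25*, a ubiquitin ligase of the RNA sensing branch, had log2 fold changes compared to vehicle between −0.52 and 0.06, none of them called.

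None of the 6 interferon regulatory factors was called in any comparison. Their median log2 fold change with LPC was −0.56, beside −0.18 over all genes, and 6 of 6 had lower fitted levels than in vehicle, as did 63.3% of all genes. *IRF5*, a factor downstream of several innate sensors, had the smallest adjusted p. It was at 2.34, 3.21, and 0.872 CPM in vehicle and at 0.717, 0.543, and 0.720 CPM with LPC. Dantrolene gave 1.31, 1.87, and 2.67 CPM, and LPC + dantrolene gave 2.95, 1.06, and 2.66 CPM. The LPC libraries were below all 9 others, on 10 to 14 counts each.

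The log2 fold change of *IRF5* was −1.69 ± 0.64 with LPC compared to vehicle (SE, adjusted p = 0.101) and 1.74 ± 0.64 with LPC + dantrolene compared to LPC (adjusted p = 0.377). The first was called with at least 10 counts in every library (adjusted p = 0.0137) and without LPC + dantrolene replicate 2 (0.0452). For *IRF9*, the DNA-binding partner of STAT2, the LPC difference was −2.07 ± 0.89 (adjusted p = 0.182) on at most 43 counts per library, and with only the 2 groups compared it was called (−1.98, adjusted p = 0.0450). *IRF1*, an early interferon-gamma target, was at 33.7 to 36.5 CPM in vehicle and 19.3 to 25.0 CPM with LPC, groups that did not overlap, and differed by −0.67 ± 0.32 on the log2 scale (adjusted p = 0.282). *IRF3*, which TBK1 phosphorylates, and *IRF7*, which amplifies the response, differed by −0.44 and −0.46 with LPC, with overlapping groups.

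The receptor and JAK-STAT genes were expressed and changed little. *TYK2*, the kinase bound to the type I receptor, had the smallest adjusted p of this class, at 0.339 for the interaction of LPC with dantrolene (the LPC change in its presence minus that in its absence). It was at 86.1, 128, and 102 CPM in vehicle and at 65.9, 80.0, and 74.4 CPM with LPC, with no overlap between these groups. Dantrolene gave 81.8, 74.3, and 87.0 CPM and LPC + dantrolene gave 63.2, 157, and 99.9 CPM, a group that spanned all the others. *IFNAR1*, *IFNGR1*, *IFNGR2*, *JAK1*, and *STAT2* had log2 fold changes between −0.51 and 0.18 compared to vehicle, and none was called.

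Of the 19 induced effectors tested, 4 were called higher with LPC, which is 21.1% beside 8.54% of all genes. The class as a set was not tested. *EIF2AK2*, which encodes the double-stranded RNA-activated kinase PKR that halts translation, had the largest rise among the members called. *EIF2AK2* (ENSSSCG00000008496, chr3:103041029-103096741) was at 11.4, 13.9, and 9.41 CPM in vehicle, 62.0, 32.5, and 55.3 CPM with LPC, 22.2, 65.1, and 33.0 CPM with dantrolene, and 64.2, 10.3, and 38.6 CPM with both. Of the 9 treated libraries, 8 were above the vehicle range and LPC + dantrolene replicate 2 was within it.

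*EIF2AK2* rose from 11.6 ± 2.25 to 49.95 ± 15.5 CPM with LPC (SD, n = 3), which is 2.11 ± 0.39 on the log2 scale (SE, adjusted p = 4.09e-05). It rose by 1.79 ± 0.39 with dantrolene (adjusted p = 0.000567) and by 1.70 ± 0.39 with LPC + dantrolene (adjusted p = 0.00116). The dantrolene call was lost without dantrolene replicate 2 (1.25, adjusted p = 0.0889), and the call with both agents was lost without LPC + dantrolene replicate 1 (1.08, adjusted p = 0.154) and with DESeq2 (adjusted p = 0.0767). Without LPC + dantrolene replicate 2 it was 2.21 (adjusted p = 3.1e-07).

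*IFIT5* (ENSSSCG00000010454), which binds viral and cellular RNA ends, was at 11.7, 13.8, and 11.97 CPM in vehicle and at 47.4, 35.8, and 48.0 CPM with LPC. It was at 18.9, 59.7, and 31.1 CPM with dantrolene and at 55.3, 12.1, and 30.0 CPM with both. The same 8 of 9 treated libraries as for *EIF2AK2* lay above the vehicle range.

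*IFIT5* rose by 1.81 ± 0.37 on the log2 scale with LPC (SE, adjusted p = 0.000245), by 1.55 ± 0.37 with dantrolene (adjusted p = 0.00214), and by 1.38 ± 0.37 with both (adjusted p = 0.00807). With the isolation as a block the last had an adjusted p of 0.0595. Without vehicle replicate 1 or 2 or LPC replicate 2 the adjusted p was 0.0935, 0.0617, and 0.0544. The call with both agents was also lost with only the 2 groups compared. Without LPC + dantrolene replicate 1 the change was 0.754 (adjusted p = 0.411), and without replicate 2 of that group 1.83 (adjusted p = 9.29e-06). The dantrolene call was lost without dantrolene replicate 2 (1.00, adjusted p = 0.198). The IFIT genes are related in sequence, and reads that fit several of them could be split among them.

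*IFI44L* (ENSSSCG00000027660, chr6:134660230-134679212), a paralog of *IFI44*, was at 15.2, 18.9, and 17.0 CPM in vehicle, 57.1, 27.9, and 41.8 CPM with LPC, 26.6, 62.4, and 36.0 CPM with dantrolene, and 63.1, 19.6, and 43.6 CPM with both. Here all 9 treated libraries were above all 3 vehicle libraries. Its log2 fold changes were 1.31 ± 0.36 with LPC (SE, adjusted p = 0.00705), 1.29 ± 0.36 with dantrolene (adjusted p = 0.00918), and 1.31 ± 0.36 with both (adjusted p = 0.00915). The LPC call was lost without vehicle replicate 1 (adjusted p = 0.0828) or LPC replicate 1 (adjusted p = 0.158), and with the isolation as a block the adjusted p with both agents was 0.0592. Without vehicle replicate 1, vehicle replicate 2, or dantrolene replicate 2 the dantrolene call was lost (adjusted p up to 0.277), and without either of those vehicle libraries or LPC + dantrolene replicate 1 the call with both was lost (up to 0.234). The change with both was 1.71 once LPC + dantrolene replicate 2 was left out (adjusted p = 1.68e-05). Its neighbour *IFI44* lay at 16.8 to 39.9 CPM in vehicle and was not called, so the paralogs differed in outcome, a difference that was not tested.

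*PARP14* (ENSSSCG00000011874, chr13:137809499-137865383), an interferon-induced ADP-ribosyltransferase, was at 2.96, 5.37, and 4.77 CPM in vehicle and at 16.03, 4.67, and 15.3 CPM with LPC. It was at 7.61, 15.7, and 6.60 CPM with dantrolene and at 16.6, 1.62, and 5.47 CPM with both. *PARP14* rose with LPC by 1.46 ± 0.44 (SE, adjusted p = 0.0196), in 2 of 3 isolations. This call was lost with the isolation as a block (adjusted p = 0.163), without vehicle replicate 1 or 2 (adjusted p = 0.268 and 0.0847), without LPC replicate 1 (adjusted p = 0.276), with total counts alone (adjusted p = 0.0838), and with DESeq2 (adjusted p = 0.343). With dantrolene the difference was 1.20 (adjusted p = 0.0792), which was called in 8 of 20 alternatives (adjusted p down to 0.0107), and the interaction of LPC with dantrolene was −1.80 (adjusted p = 0.0745) and was called in 6 of 19 (down to 0.00348). Both counts include the threshold of 0.1, which these adjusted p-values pass by definition. The difference between both agents and vehicle (0.86, adjusted p = 0.362) was called once LPC + dantrolene replicate 2 was left out (1.41, adjusted p = 0.00761). *DTX3L* and *PARP9*, which form a complex and lie close to *PARP14* on chromosome 13, were not called.

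The other 15 effectors tested, among them *ISG15*, *MX1*, *MX2*, *OAS1*, *OAS2*, *RSAD2*, *IFIT1*, *IFIT2*, *IFI6*, and *USP18*, were not called in any comparison. These are the textbook targets of type I interferon. *ISG15*, the ubiquitin-like modifier, was at 17.7, 65.3, and 79.6 CPM in vehicle, 59.6, 18.9, and 43.6 CPM with LPC, 28.9, 49.6, and 31.5 CPM with dantrolene, and 56.0, 22.2, and 17.9 CPM with both. Its highest and lowest values were both in the vehicle group, so no treated library left the vehicle range. *MX1*, an antiviral GTPase, was at 122, 324, and 279 CPM in vehicle, 249, 97.6, and 265 CPM with LPC, 143, 255, and 162 CPM with dantrolene, and 269, 135, and 109 CPM with both.

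The summed level of these 15 effectors was 420, 1074, and 920 CPM in vehicle and 906, 399, and 872 CPM with LPC. It was 568, 865, and 596 CPM with dantrolene and 946, 448, and 429 CPM with both. Every group held libraries that differed from each other by more than the group means did. The 15 genes moved together from library to library, with a mean pairwise Pearson's r of 0.628 for their deviations from the group means over the 12 libraries, while all genes averaged 0.00947. For the 4 effectors called higher with LPC the mean pairwise r was 0.930, and between both sets it was 0.656, so the 2 sets also moved together. In the same order these values were 0.659, 0.865, and 0.630 without LPC + dantrolene replicate 2. These values describe libraries that share depth and scaling, and the members were split by their calls.

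**Figure D3:**
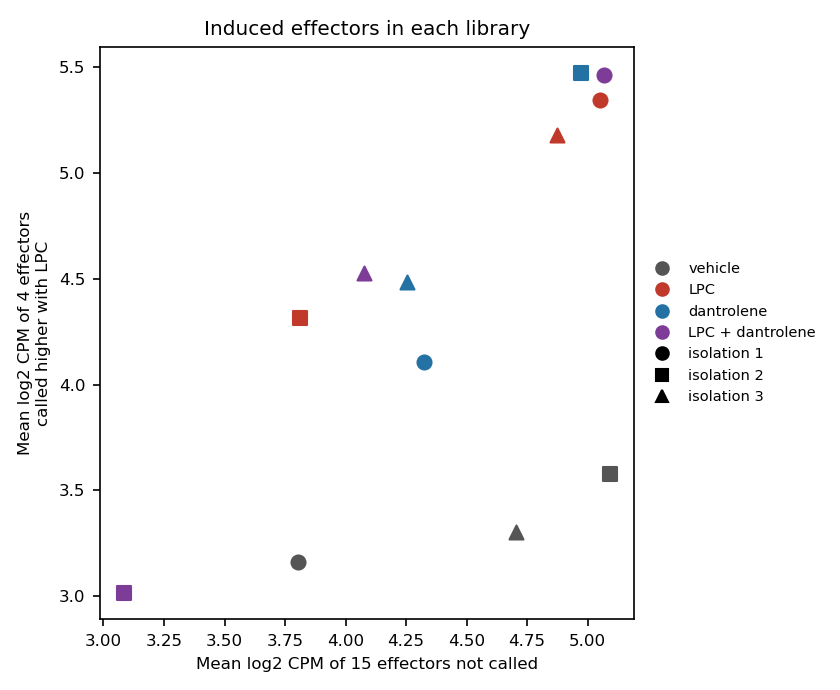
Mean log2 CPM of the 15 effectors that were not called (horizontal axis) and of the 4 called higher with LPC (vertical axis), 1 point per library, with colour for the group and shape for the isolation. Vehicle libraries 2 and 3 lie low on the vertical axis at 3.58 and 3.31 but high on the horizontal axis at 5.09 and 4.71, and LPC + dantrolene isolation 2 is lowest on both.

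Between the vehicle and LPC libraries of isolation 2 the summed level of the 15 effectors went from 1074 to 399 CPM, while *EIF2AK2* went from 13.9 to 32.5 CPM *IFIT5* from 13.8 to 35.8 CPM, *IFI44L* from 18.9 to 27.9 CPM, and *PARP14* from 5.37 to 4.67 CPM. In isolation 1 both sets were higher with LPC, with sums of 420 and 906 CPM. LPC + dantrolene replicate 2, the library that stands apart, had the lowest mean of the 4 called effectors, at 3.02 log2 CPM, whereas dantrolene replicate 2, LPC + dantrolene replicate 1, and LPC replicates 1 and 3 had the highest, at 5.18 to 5.47. Over the 12 libraries the mean of the 4 called effectors followed the score on the first principal component (Pearson's r = 0.859, and 0.897 without LPC + dantrolene replicate 2) and the TMM factor (r = 0.777 and 0.723). For the mean of the 15 effectors not called, r was 0.631 and 0.262 with the component, and 0.300 and 0.0229 with the TMM factor. These libraries share groups and scaling, and the part of both measures in the results was not tested.

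**Figure D4:**
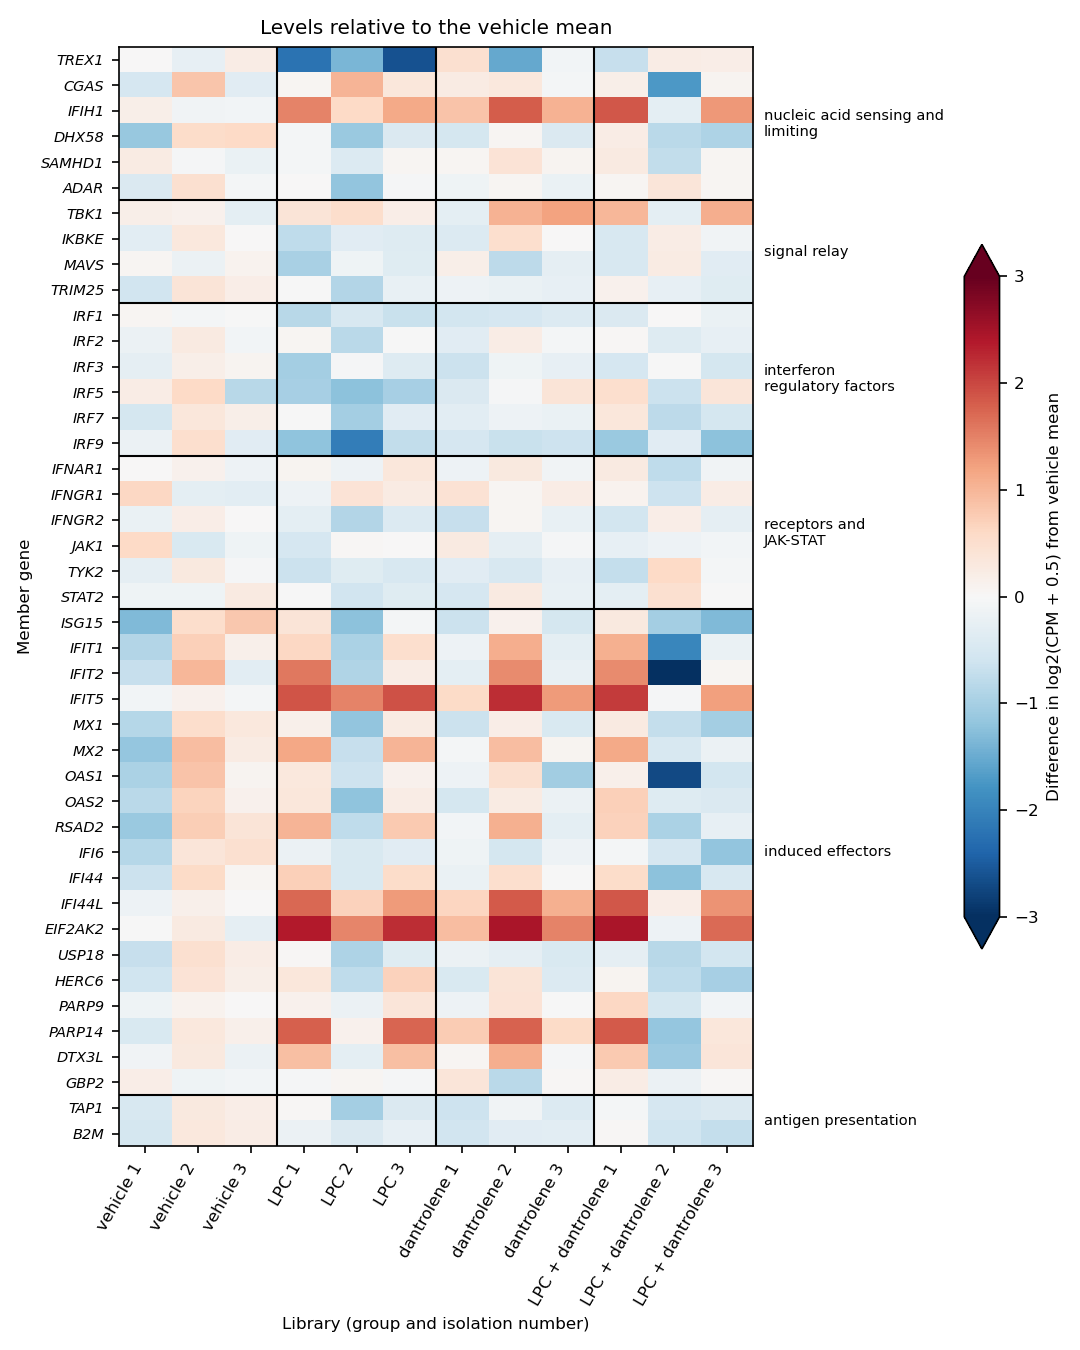
Difference in log2(CPM + 0.5) from the vehicle mean for the 43 tested members (rows, by role) in the 12 libraries (columns), with colours ending at ±3. *EIF2AK2*, *IFIT5*, *IFI44L*, and *IFIH1* are red in 8 or 9 of the 9 treated libraries. The remaining effectors differ, since *MX1* changes colour within each group, whereas *IFI6* is below the vehicle mean in all 9 treated libraries. *TREX1* is blue in the LPC libraries, in dantrolene isolation 2, and more faintly in LPC + dantrolene isolation 1.

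Antigen presentation genes were high and not called. *TAP1*, the peptide transporter, had the smallest adjusted p of this pair, at 0.566 with LPC. It was at 61.0, 105, and 98.2 CPM in vehicle, 87.6, 42.2, and 63.2 CPM with LPC, 55.5, 79.1, and 64.8 CPM with dantrolene, and 82.1, 60.8, and 63.3 CPM with both. All groups overlapped. *B2M*, the light chain of MHC class I, was at 703 to 1253 CPM in vehicle and 615 to 1032 CPM in the treated libraries.

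The combined treatment was also compared to each single agent. Against LPC, 17 of the 19 tested effectors had lower fitted levels with LPC + dantrolene, beside 48.4% of all genes, and none was called. This count was 16 with RLE factors, 14 with total counts alone, and 12 without LPC + dantrolene replicate 2. Against dantrolene, none of the 43 members was called in edgeR, and none had an unadjusted p under 0.05, beside 0.0151% of all genes higher and 0.00757% lower. DESeq2 also called none of them. Of the 19 tested effectors, 16 had lower fitted levels with LPC + dantrolene than with dantrolene, beside 49.6% of all genes. Without LPC + dantrolene replicate 2 only 6 were lower and 13 were higher.

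Whether LPC acted differently once dantrolene was present was tested as an interaction, the LPC change with dantrolene minus the LPC change without it, and 3 members passed. It was 2.92 ± 0.81 on the log2 scale for *TREX1* (SE, adjusted p = 0.0181), −1.98 ± 0.52 for *IFIT5* (adjusted p = 0.0111), and −2.20 ± 0.54 for *EIF2AK2* (adjusted p = 0.00605). The 1 positive call is 2.33% of the members beside 0.159% of all genes, and the 2 negative calls are 4.65% beside 4.49%. LPC changed *TREX1* by −2.76 without dantrolene and by 0.16 with it, *IFIT5* by 1.81 and −0.17, and *EIF2AK2* by 2.11 and −0.09. The changes with dantrolene had both signs among the isolations. In isolations 1, 2, and 3 the log2 ratios of LPC + dantrolene to dantrolene were −1.37, 2.25, and 0.311 for *TREX1*. They were 1.55, −2.30, and −0.0504 for *IFIT5*, and 1.53, −2.67, and 0.226 for *EIF2AK2*.

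With the isolation as a block, the adjusted p of the interaction was 0.0814 for *TREX1*, 0.0613 for *IFIT5*, and 0.0418 for *EIF2AK2*. Without dantrolene replicate 2, the library with the highest *IFIT5* and *EIF2AK2* of its group, it was 2.47 for *TREX1* (adjusted p = 0.135), −1.43 for *IFIT5* (adjusted p = 0.234), and −1.66 for *EIF2AK2* (adjusted p = 0.162). Leaving out vehicle replicate 1 (adjusted p = 0.0588, 0.0695, and 0.0546 in the same order), LPC replicate 1 (0.0979, 0.0770, and 0.0790), or LPC replicate 2 (0.0679, 0.0944, and 0.0850) also ended all 3 calls. Without vehicle replicate 2 the adjusted p was 0.0533 for *TREX1* and 0.0598 for *IFIT5*, and without LPC replicate 3 it was 0.0501 for *TREX1*. Total counts alone also ended them (0.107, 0.0759, and 0.0694), and DESeq2 ended that of *EIF2AK2* (0.145). Without LPC + dantrolene replicate 2 all 3 calls held, at 2.66, −1.65, and −1.82.

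**Figure D5:**
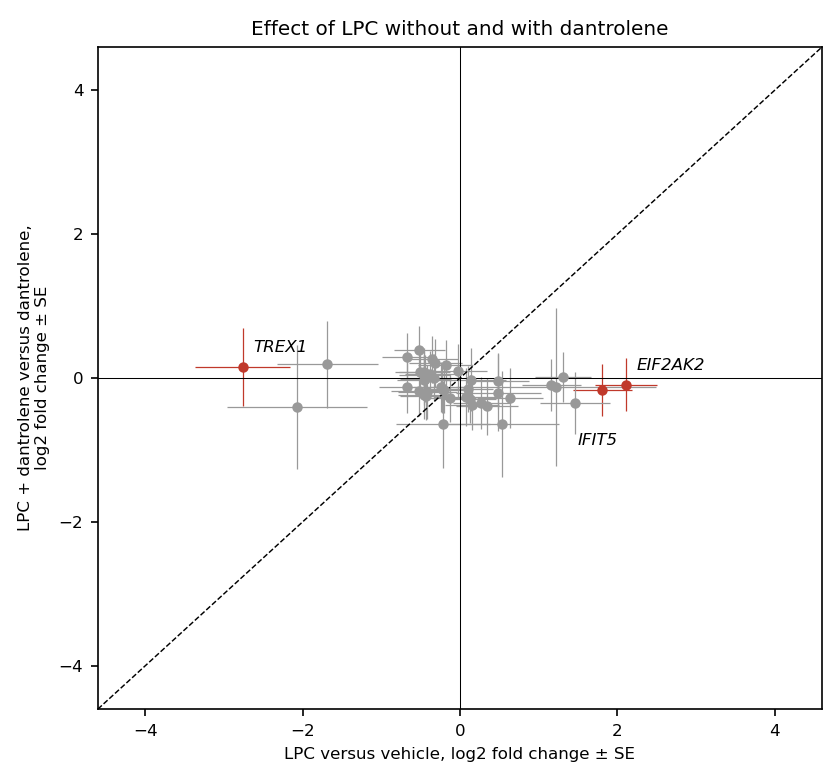
Log2 fold change with its standard error for LPC versus vehicle (horizontal axis) and for LPC + dantrolene versus dantrolene (vertical axis) of the 43 tested members, 2 comparisons that share no library. The members whose interaction was called are red, and they lie near 0 on the vertical axis at 0.16, −0.17, and −0.09, away from the dashed line of equal effects.

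Of 118 further genes listed for this pathway, 86 had a row and 70 were tested, and 7 of these passed the test in at least 1 comparison. LPC raised all 7, which is 10.0% of those tested beside 8.54% of all genes, and lowered none. Dantrolene raised 5 (7.14%, beside 7.54% of all genes), as did LPC + dantrolene (beside 6.23%), so these shares were near the background, and 0 were called between LPC + dantrolene and either agent alone. *SAMD9*, an antiviral effector, was at 2.53, 2.98, and 3.72 CPM in vehicle, 21.1, 24.2, and 18.0 CPM with LPC, 9.03, 33.6, and 13.4 CPM with dantrolene, and 19.0, 7.33, and 16.8 CPM with both. All treated libraries were above all vehicle libraries.

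*SAMD9* rose by 2.78 on the log2 scale with LPC (adjusted p = 9.35e-07). The interaction was called for 3 of the 70 genes, all negative, which is 4.29% beside 4.49% of all genes: *SAMD9* (−3.16, adjusted p = 0.000174), *JAK2* (−2.37, adjusted p = 0.00285), and *PIAS1* (−2.04, adjusted p = 0.0113). *JAK2*, a kinase of the interferon-gamma receptor, rose by 2.30 with LPC, 2.29 with dantrolene, and 2.22 with both. *PIAS1*, an inhibitor of JAK-STAT signalling, rose by 1.94, 1.83, and 1.74 in the same order. *TLR3*, the endosomal sensor of double-stranded RNA, rose by 1.74, 1.77, and 2.21. *PNPT1*, a mitochondrial RNA nuclease, rose by 1.60, 1.80, and 1.74. *PTPN11*, a phosphatase that acts on JAK-STAT signalling (1.16, adjusted p = 0.0158), and *DDX60*, a helicase of the RNA sensing branch (1.42, adjusted p = 0.0319), rose with LPC and were not called with dantrolene.

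The ligands of the pathway were nearly absent. Of the 6 interferon and related cytokine genes with a row, none passed the filter on low counts. *IFNA1*, *IFNG*, *IFNK*, and *IFNE* had 0 counts in all 12 libraries, which allows up to 0.186 CPM in the library where 3 counts weigh most. *IFNB1* had 6 counts in LPC replicate 1 and 1 count in LPC + dantrolene replicate 1. *STING1*, the adaptor that answers to cGAS, was at 0.150 to 1.81 CPM and was not called.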

How the data were processed

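The data are bulk mRNA sequencing of paVICs, with 12 libraries in 4 groups of 3. The authors aligned the reads to the pig genome (their methods name STAR, and the submitters' processing notes name HISAT2 2.0.5 and Sscrofa11.1), adjusted them for the isolation with ComBat, and deposited whole-number counts per gene. These are therefore not the reads as sequenced. ComBat spent degrees of freedom of which the tests know nothing, which can make p-values too small. The deposited tables of the authors' DESeq2 comparisons were not used. Replicates are separate isolations.

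The analysis used edgeR 4.0.16 in R 4.3.3 (filterByExpr with 4 groups, TMM factors, 1 quasi-likelihood fit of all 12 libraries with group as the only term). P-values were adjusted by Benjamini-Hochberg over 13216 genes and called under 0.05. CPM values are TMM-scaled, log2 CPM used a prior count of 2, and principal components used the 500 most variable genes. The floor of 3 counts covers counting error only.

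The members, the role classes, and the lists of other genes and markers were chosen with earlier results of these data known. Given library by library were *TREX1*, every member called in any of 6 comparisons, and the member with the smallest adjusted p in each role class; other pathway genes were named where called. A gene counted among the other pathway genes is not reported here by name. Gene positions come from RefSeq Sscrofa11.1, matched by symbol for 42 members. Alternatives were DESeq2 1.42.0, RLE factors, scaling by total counts alone, a fit without a filter on low counts, a stricter one (10 or more counts in all 12 libraries), fits of just the 2 groups in question, a term for the isolation, a threshold of 0.1, and leaving out single libraries. The threshold of 0.1 keeps the same fit and cannot end a call. The labels number the replicates alike in each group and do not name the isolation. Libraries with the same replicate number were assumed to come from the same isolation and were taken as pairs. All results by isolation, and those with the isolation as a block, rest on this assumption. Deviations from the group means correlated with a median r of −0.152 within isolations and 0.108 between them, which the ComBat adjustment fixes.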

Additional observations from a re-analysis of the deposited data

Results flagged for a closer look

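For 3 members the effect of LPC differed between vehicle-treated and dantrolene-treated paVICs by the test of the interaction itself. The 2 negative calls are 4.65% of the members, near the 4.49% of all genes. The 1 positive call is 2.33%, beside 0.159% of all genes. The difference was 2.92 on the log2 scale for *TREX1*, −1.98 for *IFIT5*, and −2.20 for *EIF2AK2*. In each of them LPC had a called effect without dantrolene (−2.76, 1.81, and 2.11) and a fitted effect near 0 with it (0.16, −0.17, and −0.09). In each gene the change with dantrolene had both signs among the isolations. For *IFIT5* and *EIF2AK2* dantrolene alone had already raised the level by 1.55 and 1.79, and for *TREX1* it had not changed it by the test (−0.20). With the isolation as a block the adjusted p of the difference was 0.0814, 0.0613, and 0.0418, and all 3 calls were lost without dantrolene replicate 2, vehicle replicate 1, LPC replicate 1, or LPC replicate 2 and with total counts alone.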

How the results depend on the processing

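LPC lowered *TREX1* in 19 of 19 alternatives (log2 fold change −3.74 to −2.33, adjusted p 6.27e-05 to 0.0185; with at least 10 counts in every library it was not among the genes tested), and raised *EIF2AK2* (1.92 to 2.34) and *IFIT5* (1.74 to 1.98) in 20 of 20. The other calls depended on single libraries. With each library left out in turn, the number of members called ranged from 3 to 7 for LPC versus vehicle (6 with all libraries), 0 to 5 for dantrolene versus vehicle (4), 1 to 5 for LPC + dantrolene versus vehicle (4), 0 to 1 for LPC + dantrolene versus LPC (1), and 0 to 6 for the interaction (3), and it was 0 in every case for LPC + dantrolene versus dantrolene. Of the other pathway genes 5 to 9 were called in any comparison (7). The shares of all genes moved as well. Compared to vehicle, 4.90% to 11.9% of all genes were called higher with LPC over these fits. With dantrolene the share was 2.77% to 11.2%, and with both 3.42% to 12.6%. For the interaction, 0.0293% to 6.52% of all genes were called lower. Without dantrolene replicate 2 no member was called between dantrolene and vehicle. Without LPC + dantrolene replicate 1 the only member called between both agents and vehicle was *ISG15*, lower by a log2 fold change of −1.44 (adjusted p = 0.0461). For LPC + dantrolene versus vehicle 2 members were called with DESeq2, 2 with only the 2 groups, and 1 with the isolation as a replicate block. For LPC + dantrolene versus LPC the count was 0 with total counts alone, with at least 10 counts in every library, with only the 2 groups, and with the replicate block. For the interaction it was 0 with total counts alone and 1 with the block. The block left 4 members called with LPC and 4 with dantrolene, and apart from the losses given with each member it changed no call of a member. No member's fold change with an unadjusted p under 0.05 reversed. Other fold changes did, as for effectors in LPC + dantrolene versus dantrolene once LPC + dantrolene replicate 2 was left out. The cause of these losses was not tested.

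Total counts alone moved the median of all genes from −0.18 to −0.0023 with LPC, from −0.11 to 0.13 with dantrolene, and from −0.08 to 0.12 with both; TMM factors were 0.879 to 0.918 in vehicle and 0.863 to 1.15 in treated libraries. *TREX1*, *IRF5*, *IRF9*, *CGAS*, and *TBK1* had few counts, which limits their precision.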

Other observations

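*GBP1* and *IFNAR2* had no symbol in the count table, but a table of gene names ties them to ENSSSCG00000024973 and ENSSSCG00000036556. They were looked up after the values of the members were seen. *GBP1*, an interferon-induced GTPase, was at 6.82, 15.3, and 19.0 CPM in vehicle, 15.3, 5.70, and 15.3 CPM with LPC, 4.38, 10.7, and 5.68 CPM with dantrolene, and 9.94, 4.29, and 3.06 CPM with LPC + dantrolene. It fell with LPC + dantrolene compared to vehicle by 1.25 on the log2 scale (edgeR, adjusted p = 0.0399), in 2 of 3 isolations, and was not called with LPC or dantrolene alone. *IFNAR2*, the second chain of the type I receptor, was at 26.5 to 56.8 CPM and was not called.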
